A study of Mus musculus with 12 samples.

Results

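This account follows 41 genes that make, use and recycle glutathione or remove peroxides and superoxide, in RNA from mouse interscapular brown adipose tissue. The genes were listed by name and kept where at least 10 counts were reached in 3 or more count files. All 41 met that rule, against 15282 genes in the whole series, and all 41 reached 10 counts in each of the 12 libraries and were tested. The groups were mice lacking Cdk7 in brown fat (KO, labelled CDK7 bKO) after 6 h of cold, their wild-type littermates (WT) after 6 h of cold, KO mice at room temperature and WT mice at room temperature. All mice were of the C57BL/6 strain, 12 weeks old, and were killed at zeitgeber time 9, and food was left in the cage during the cold exposure. Each group had 3 libraries, and each library pooled RNA of 2 mice, so the spread between libraries is that between pools and not between single mice. The Cre driver of the deletion, the temperature of the cold and the sex of the mice are not given in the sources used here. CDK7 is the kinase of the complex that activates other cyclin-dependent kinases and of the general transcription factor TFIIH. Its gene Cdk7 stood at 4.35 to 5.77 CPM, counts brought to a common library size, in the 6 KO libraries, against 15.1 to 17.9 CPM in the 6 WT libraries.

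Glutathione is a tripeptide built from glutamate, cysteine and glycine. Glutathione peroxidases and peroxiredoxins use it, or thioredoxin, to reduce peroxides, transferases couple it to reactive lipids and foreign compounds, and NADPH-dependent reductases restore the reduced forms. Many of these genes are driven by the transcription factor NFE2L2, which KEAP1 holds at a low level in unstressed cells and which binds the antioxidant response element. In brown fat, respiration by mitochondria that run uncoupled in the cold is a source of such peroxides and of lipid oxidation products.

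The antioxidant response element was searched for as the letters TGACNNNGC, or GCNNNGTCA on the other strand, in the windows of 250 bases before to 50 bases after each start in the RefSeq promoter table (GRCm38.p6). The table held 35 of the 41 genes, and 10 of these, or 28.6%, had a match in at least 1 window, against 14.0% of all genes in the table and 12.4% of all windows. These genes were Gsta3, Nfe2l2, Srxn1, Gstm5, Gstm7, Gclm, Prdx1, Mgst1, Txnrd1 and Sod1. Gclc, Gsr, Gsta4, Gstt2, Prdx6 and Sod3 were not matched to the table. A match is a description of these letters and no evidence of binding. The 6 stretches below were chosen after the matches and the expression values had been seen, because they belong to genes whose levels are set side by side here. They are Srxn1 and Txnrd1 with the increase in the cold, Gclm of glutathione synthesis, Gsta3 and Mgst1 of the transferases, and Prdx1. The last was not called in the main fit with TMM. Capitals mark the match. Apart from Srxn1, each stretch is the 250 bases before the start, on the strand of the gene, and all 6 genes lie on the plus strand.
Srxn1, chr2:152105542-152105571, 30 bases around a match at base 29 after the start: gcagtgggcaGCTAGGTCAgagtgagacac
Txnrd1, chr10:82858956-82859205, the only one of its windows with a match: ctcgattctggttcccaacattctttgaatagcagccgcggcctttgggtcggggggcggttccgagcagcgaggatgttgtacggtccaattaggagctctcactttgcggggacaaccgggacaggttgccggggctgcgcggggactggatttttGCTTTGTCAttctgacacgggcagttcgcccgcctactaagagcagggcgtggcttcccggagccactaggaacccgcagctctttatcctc
Gclm, chr3:122245307-122245556: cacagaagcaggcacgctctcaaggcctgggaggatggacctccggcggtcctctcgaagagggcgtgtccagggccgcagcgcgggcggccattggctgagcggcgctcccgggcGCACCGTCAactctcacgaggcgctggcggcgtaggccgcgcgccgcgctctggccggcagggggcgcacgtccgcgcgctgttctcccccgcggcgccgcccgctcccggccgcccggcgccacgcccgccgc
Prdx1, chr4:116685349-116685598: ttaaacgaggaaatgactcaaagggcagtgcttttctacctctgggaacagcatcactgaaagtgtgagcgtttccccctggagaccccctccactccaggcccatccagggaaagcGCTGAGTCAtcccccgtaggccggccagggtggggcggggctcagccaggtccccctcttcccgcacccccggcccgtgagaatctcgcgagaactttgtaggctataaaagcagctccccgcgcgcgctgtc
Mgst1, chr6:138140277-138140526, the only one of its windows with a match: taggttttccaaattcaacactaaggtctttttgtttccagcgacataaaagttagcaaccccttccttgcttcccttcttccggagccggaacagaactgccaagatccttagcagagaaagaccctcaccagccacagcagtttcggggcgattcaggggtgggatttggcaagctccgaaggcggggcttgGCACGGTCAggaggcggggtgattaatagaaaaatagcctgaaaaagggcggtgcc
Gsta3, chr1:21240335-21240584: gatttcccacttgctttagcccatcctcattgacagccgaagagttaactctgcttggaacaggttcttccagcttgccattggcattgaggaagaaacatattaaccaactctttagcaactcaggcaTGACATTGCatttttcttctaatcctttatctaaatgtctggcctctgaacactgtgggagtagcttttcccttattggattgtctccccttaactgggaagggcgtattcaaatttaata
The matches began 92 bases before the start in Txnrd1, 134 in Gclm, 133 in Prdx1, 56 in Mgst1 and 121 in Gsta3.

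The libraries held 27609717 to 36792555 counts in genes, of which 31.1 to 42.5% fell on mitochondrially encoded genes. Levels in CPM use library sizes scaled by trimmed-mean (TMM) factors. A gene was called where edgeR's quasi-likelihood test gave an adjusted p under 0.05 after Benjamini-Hochberg adjustment over 15208 genes. Each adjusted p below comes from that fit unless an alternative is named, which has its own fit and adjustment. Log2 fold changes are given ± SE, taken as the absolute log2 fold change over the square root of the F statistic. The TMM factors were higher in KO libraries (1.07 to 1.18) than in WT libraries (0.798 to 1.02). Scaling by library totals alone moved the median of all genes in KO relative to WT to 0.45 on the log2 scale in the cold and to 0.22 at room temperature, where TMM left it at 0.012 and 0.0033. The values here are therefore relative to the bulk of genes. The first WT library at room temperature stood apart from its group, with 42.5% mitochondrially encoded counts and a chi-square per degree of freedom of 98.5 and 70.8 against its replicates, where other pairs within a group gave 11.3 to 47.0.

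Markers of other cells moved with genotype. The macrophage list of 11 genes summed to 187 to 240 CPM in KO cold, 72.0 to 78.8 CPM in WT cold, 149 to 177 CPM in KO at room temperature and 52.6 to 64.3 CPM in WT at room temperature. Of its 10 tested genes 9 were higher in KO at each temperature, and Itgam was listed at 0 in every library. The brown adipocyte list of 10 genes was present in every group of the labelled brown fat, at 8393 to 9366 CPM in KO cold, 23060.0 to 26220.0 CPM in WT cold, 7948 to 8649 CPM in KO at room temperature and 10350.0 to 13570.0 CPM in WT at room temperature. Of its 10 genes 6 were called lower and 0 higher in KO in the cold, and 4 lower and 1 higher at room temperature. The adipocyte list of 6 genes shared by white and brown fat also summed lower in KO (9460.0 to 9884 CPM in KO cold, 10860.0 to 11260.0 CPM in WT cold). Of these 6 genes 2 were called lower in the cold and 5 at room temperature, and 0 higher at either. The sums of endothelial genes (771 to 905 CPM in KO cold, 704 to 731 CPM in WT cold), smooth muscle and pericyte genes (613 to 707 CPM in KO cold, 451 to 458 CPM in WT cold) and T and B cell genes (3.39 to 5.04 CPM in KO cold, 1.41 to 2.27 CPM in WT cold) were higher in KO. In the cold 5 of 7 endothelial genes were called higher and 1 lower. For smooth muscle and pericytes 5 of 6 were higher and 0 lower, and for T and B cells 3 of 6 tested were higher and 0 lower. None of the sums of these lists overlapped between genotypes at either temperature, whereas erythrocyte genes overlapped at both and fibroblast genes in the cold. Fibroblast and preadipocyte sums did not overlap at room temperature (431.5 to 497.4 CPM in KO, 307.9 to 357.4 CPM in WT). Of these 8 genes 5 were called higher in KO in the cold and 3 at room temperature, and 0 lower at either. Skeletal muscle transcripts ran from 45.2 to 1418 CPM and were highest in KO room temperature library 6 and WT room temperature library 2. The part of these markers in the results below was not tested, and in bulk tissue fewer cells of a type and less RNA per cell cannot be told apart.

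Across the 41 genes, the KO in the cold differed from WT in 23, or 56.1%, where 53.7% of all tested genes were called. Of these, 10 were higher and 13 lower, against 25.9 and 27.8% of all genes. At room temperature 14 genes were called, or 34.1%, against 40.4% of all genes, with 4 higher and 10 lower, against 19.3 and 21.0%. With cold, 8 of the genes changed in KO, or 19.5% against 14.8% of all genes, with 3 higher and 5 lower, against 7.29 and 7.56%. In WT 15 changed with cold, or 36.6% against 46.3%, with 6 higher and 9 lower, against 23.0 and 23.2%. The difference between the cold responses of KO and WT was called for 8 genes, or 19.5% against 23.5%, with 6 higher and 2 lower, against 10.6 and 12.9%. The 4 genes higher in KO at room temperature were 9.76% of the 41 and the 2 lower for the difference between responses were 4.88%, below the shares of all genes. The median log2 fold change of the 41 genes was -0.0099 for KO against WT in the cold and -0.077 at room temperature, beside 0.012 and 0.0033 over all genes. Under library totals alone the splits became 25 higher and 3 lower for KO against WT in the cold, 8 and 6 at room temperature, 2 and 1 for the cold response of KO, 3 and 13 for that of WT, and 9 and 0 for the difference between the cold responses. Of the 13 genes called lower in KO in the cold with TMM, 3 (Gclm, Prdx6 and Sod2) changed sign under library totals alone, 7 kept the sign without the call, and 3 stayed called. In the text below, a gene that was not called is one not called in the main fit, with TMM factors and all 12 libraries.

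**Figure D1:**
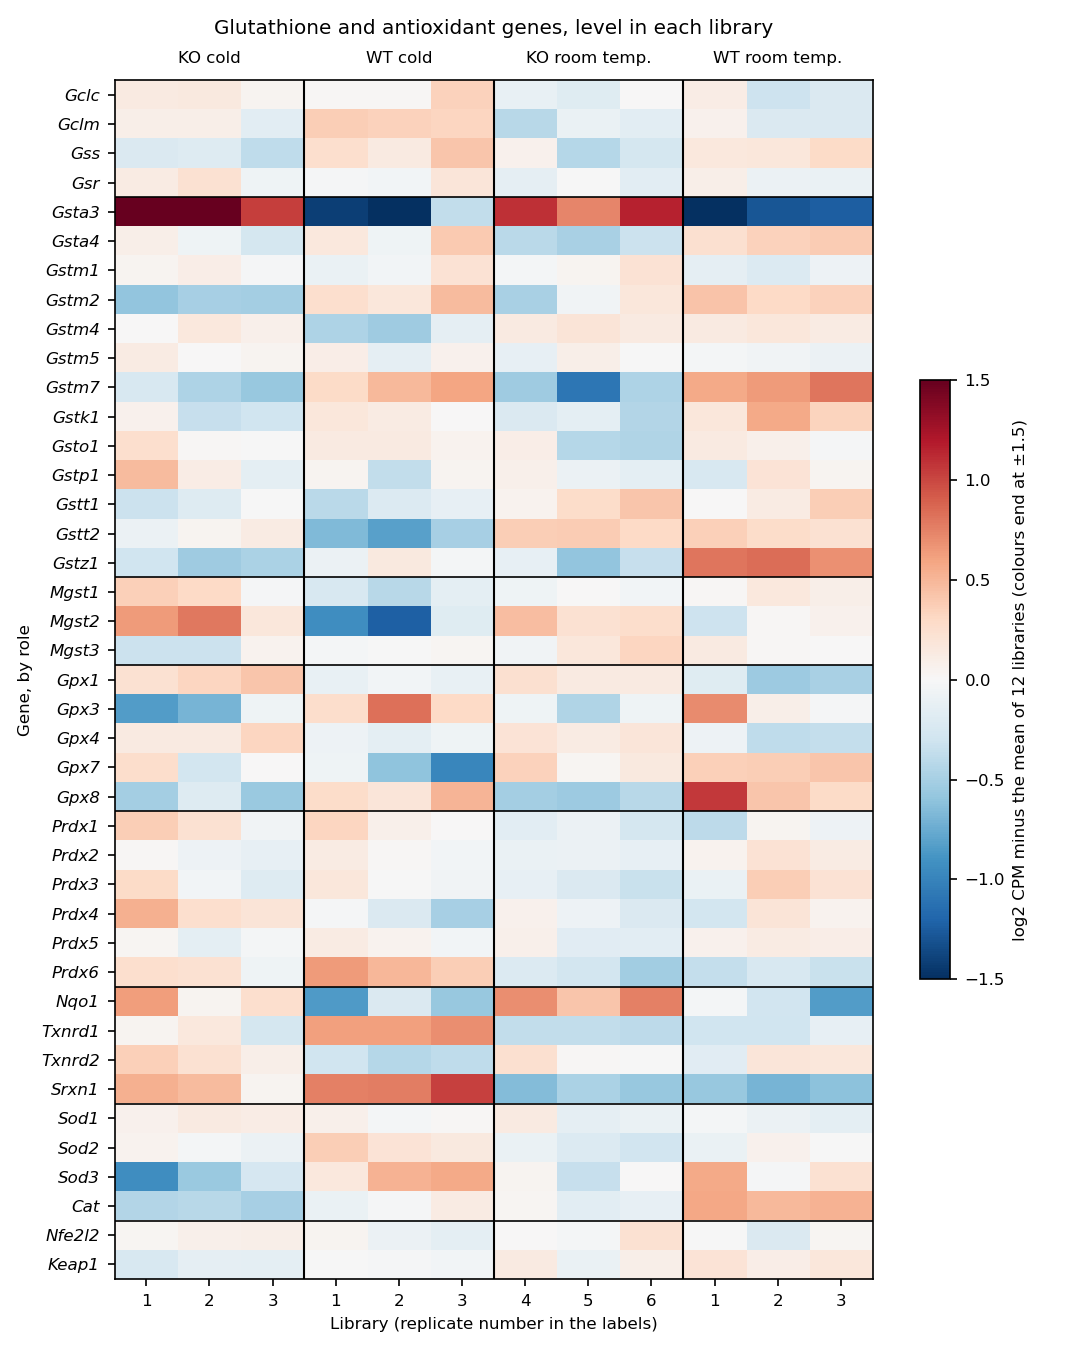
Level of each of the 41 genes (rows, grouped by role) in each of the 12 libraries (columns), as log2 CPM minus the gene's mean over the 12 libraries, with colours ending at ±1.5. Srxn1, Txnrd1 and Prdx6 are highest in the WT cold libraries, Gsta3 is high in all 6 KO libraries, and Gstz1 and Cat are highest in the WT libraries at room temperature.

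Per kilobase of exon the genes covered a wide range. Gpx3, the secreted peroxidase, was the most abundant at a mean of 775 CPM per kb over the groups, followed by Gpx4 with 474, Mgst1 with 201, Gpx1 with 197 and Cat with 190.3 CPM per kb. The order turned by group. Gpx4 (539 CPM per kb) was above Gpx3 (522) in KO cold, and Cat (267) was above Mgst1 (211) and Gpx1 (147) in WT at room temperature. Over the groups, Nqo1 with 0.838, Mgst2 with 1.07 and Gstm7 with 1.83 CPM per kb were among the lowest. The pooled SD within groups ran from 0.0689 on the log2 scale for Prdx2 to 0.597 for Gsta3, with a median of 0.151.

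In the main fit neither regulator was called in any of the 5 comparisons. Nfe2l2, the transcription factor, had 95.8, 99 and 100.3 CPM in KO cold, 96.6, 88.8 and 85.1 CPM in WT cold, 94.5, 92 and 110.1 CPM in KO at room temperature and 93.5, 80.8 and 96.2 CPM in WT at room temperature. The 4 groups overlapped, and the log2 fold change of KO over WT was 0.13 ± 0.09 in the cold (adjusted p = 0.26). Nfe2l2 was called higher in KO under library totals alone, at 0.56 in the cold (adjusted p = 0.00027) and 0.35 at room temperature (adjusted p = 0.015). Keap1, the adaptor of the ubiquitin ligase that marks NFE2L2 for breakdown, had 31.3, 33.5 and 33.3 CPM in KO cold, 36.7, 36.5 and 35.9 CPM in WT cold, 40.5, 34.3 and 39.1 CPM in KO at room temperature and 42.4, 39.5 and 41.5 CPM in WT at room temperature. All 3 KO cold libraries lay below the 3 WT cold libraries, but the difference missed the threshold at -0.15 ± 0.08 (adjusted p = 0.11). Under library totals alone Keap1 took the other sign for KO over WT in the cold and was called, at 0.28, and was called lower with cold in WT, at -0.37. It was also called under alternatives that kept TMM factors. With the stricter filter it was lower with cold in WT (-0.20, adjusted p = 0.041). Without KO room temperature library 5 it was lower with cold in KO (-0.29, adjusted p = 0.021). An exon of Keap1 overlaps an antisense gene, Gm16754, whose level was under 1 CPM in each group.

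Of the 4 genes of glutathione synthesis and recycling, KO cold libraries held less Gss and Gclm than WT cold libraries, although library totals alone turned the sign of Gclm. Gclc and Gsr were not called, but under library totals alone both were higher in KO in the cold (0.41 for Gclc, adjusted p = 0.0045, and 0.49 for Gsr, adjusted p = 0.0019). Without WT room temperature library 1, which stood apart, Gclc was called higher with cold in WT (0.40, adjusted p = 0.0051). Gclm, at chr3:122245557-122270732 on GRCm38, encodes the modifier subunit of glutamate-cysteine ligase, the first and limiting step of synthesis. It had 50.7, 50.7 and 42.7 CPM in KO cold, 61.7, 60.5 and 59.5 CPM in WT cold, 35.6, 44.5 and 42.8 CPM in KO at room temperature and 49.7, 40.9 and 41.1 CPM in WT at room temperature. Its WT cold libraries were above all others, and the rise with cold in WT was 1.38-fold (log2 0.47 ± 0.10, adjusted p = 0.0012, and 0.057 under library totals alone). In KO the cold difference was 0.23 ± 0.10 (adjusted p = 0.14), and the difference between both responses was not called (-0.23 ± 0.14, adjusted p = 0.25). KO over WT in the cold was -0.33 ± 0.10 (adjusted p = 0.01), but 0.11 under library totals alone, and the call ended without KO cold library 3 (-0.26, adjusted p = 0.056).

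Gclc, the catalytic subunit of the same enzyme, had 39.1, 39.4 and 36.4 CPM in KO cold, 36, 36 and 45.2 CPM in WT cold, 32.9, 31.2 and 35.6 CPM in KO at room temperature and 38.3, 28.5 and 30.7 CPM in WT at room temperature. The groups of both genotypes overlapped at each temperature. Gss, glutathione synthetase, had 18.9, 19.1 and 16.8 CPM in KO cold, 26, 24 and 29.3 CPM in WT cold, 22.8, 16.3 and 18.2 CPM in KO at room temperature and 24.3, 24.6 and 26.7 CPM in WT at room temperature. All KO libraries lay below the WT libraries of the same temperature, by 1.45-fold in the cold (log2 -0.53 ± 0.11, adjusted p = 0.00093) and 1.32-fold at room temperature (adjusted p = 0.01). The room temperature call ended without KO library 5 (-0.30, adjusted p = 0.055), and library totals alone ended both calls, at -0.094 and -0.19. Gss shares exon sequence with Acss2 on the other strand, which averaged 275 CPM in KO cold and 158 CPM in WT cold, so that reads of the pair cannot be told apart if the counting ignored strand. Gsr, which returns oxidised glutathione to its reduced form, had 20.6, 22.1 and 18.2 CPM in KO cold, 18.7, 18.4 and 21.5 CPM in WT cold, 17.2, 18.8 and 17 CPM in KO at room temperature and 20.1, 17.8 and 17.7 CPM in WT at room temperature. Its groups overlapped, and its log2 fold changes lay between -0.068 and 0.20 in the 4 pairwise comparisons.

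The cytosolic and mitochondrial transferases, 13 genes, were called in both directions. In KO against WT in the cold 3 were higher (Gsta3, Gstt2, Gstm4) and 3 lower (Gstm2, Gstm7, Gstz1). Of all tested genes 25.9% were higher and 27.8% lower there. At room temperature 1 was higher (Gsta3) and 5 lower (Gsta4, Gstk1, Gstm2, Gstm7, Gstz1), beside 19.3 and 21.0% of all genes. The largest KO difference of the 41 genes was in Gsta3, an alpha-class transferase with steroid isomerase activity, at chr1:21240589-21265661. It was chosen for description after its values were seen. Gsta3 had 36.5, 24.6 and 13.9 CPM in KO cold, 2.55, 1.63 and 5.21 CPM in WT cold, 14.5, 11.2 and 15 CPM in KO at room temperature and 1.73, 2.79 and 2.86 CPM in WT at room temperature. No KO library overlapped a WT library, and KO exceeded WT 7.89-fold in the cold (log2 2.98 ± 0.47, adjusted p = 0.00077) and 5.45-fold at room temperature (2.44 ± 0.47, adjusted p = 0.0035). Without WT cold library 3, the highest of its group, the log2 value in the cold was 3.57, and over all alternatives it ran from 2.60 to 3.57. The KO cold libraries differed among themselves, and cold was called in neither genotype (0.88 ± 0.41 in KO, 0.35 ± 0.51 in WT). With no filter beyond 1 count the cold difference in KO was called (0.91).

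Gstz1, which isomerises maleylacetoacetate in tyrosine breakdown, is at chr12:87147165-87164723. It had 108, 91.7 and 95 CPM in KO cold, 125, 147 and 129.9 CPM in WT cold, 122, 88 and 105 CPM in KO at room temperature and 231, 237 and 213 CPM in WT at room temperature. WT at room temperature stood above every other group, with KO 2.17-fold lower there (log2 -1.11 ± 0.11, adjusted p = 1.4e-06) and 1.36-fold lower in the cold (-0.45 ± 0.11, adjusted p = 0.0026). Cold lowered it in WT by 1.7-fold (adjusted p = 2.7e-05), KO showed -0.10 ± 0.11 (adjusted p = 0.61), and the difference between the responses was called. Library totals alone put KO over WT in the cold at -0.0038 (adjusted p = 0.98) and left the room temperature fall called. Gstz1 overlaps exons of Pomt2 on the other strand, which averaged 9.14 CPM in KO cold, 11.1 CPM in WT cold, 12.3 CPM in KO at room temperature and 12.5 CPM in WT at room temperature.

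Gstm7, a mu-class transferase of low level, had 2.28, 1.95 and 1.82 CPM in KO cold, 3.3, 3.77 and 4.06 CPM in WT cold, 1.86, 1.27 and 1.96 CPM in KO at room temperature and 3.99, 4.21 and 4.71 CPM in WT at room temperature. Genotypes did not overlap, and KO was 1.83-fold lower in the cold (log2 -0.88 ± 0.19, adjusted p = 0.00089) and 2.53-fold lower at room temperature (-1.34 ± 0.19, adjusted p = 3.7e-05). In the cold this became -0.43 (adjusted p = 0.081) under library totals alone. Gstm2, another mu-class member, had 15.6, 16.6 and 16.5 CPM in KO cold, 27.9, 26.5 and 32.8 CPM in WT cold, 16.7, 22.7 and 26.5 CPM in KO at room temperature and 31.5, 28.9 and 29.8 CPM in WT at room temperature. Every KO library was below every WT library of its temperature, at -0.84 ± 0.13 in the cold (adjusted p = 6e-05) and -0.45 ± 0.13 at room temperature (adjusted p = 0.01, and 0.19 under library totals alone). Its fall with cold in KO was -0.43 ± 0.13 (adjusted p = 0.033). The call was lost without any 1 of KO room temperature libraries 5 and 6 or of the 3 KO cold libraries, with -0.28 to -0.45. Library totals alone ended it too (-0.41, adjusted p = 0.078).

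Gstt2, a theta-class transferase, at chr10:75831114-75837424, had 13.4, 14.6 and 15.5 CPM in KO cold, 9, 8.12 and 10.1 CPM in WT cold, 18.4, 18.5 and 17.5 CPM in KO at room temperature and 18.2, 17.2 and 16.7 CPM in WT at room temperature. The genotypes overlapped at room temperature (0.064 ± 0.10), and the 3 WT cold libraries were the lowest of all 12. Cold lowered it 1.91-fold in WT (log2 -0.93 ± 0.10, adjusted p = 1.4e-06), and 1.25-fold in KO (-0.32 ± 0.10, adjusted p = 0.03). KO stood 1.6-fold above WT in the cold (adjusted p = 3.2e-05), and the difference between the responses was called. The call in KO was lost without any 1 of KO room temperature libraries 4, 5 and 6 or of KO cold libraries 1 and 2, with -0.27 to -0.35. It was also lost under library totals alone (-0.30, adjusted p = 0.11). Gstt1 of the same class fell with cold by similar amounts in KO (-0.43 ± 0.13, adjusted p = 0.034) and in WT (-0.42 ± 0.13, adjusted p = 0.016), and the difference of the 2 responses was -0.0099 ± 0.19. Without WT room temperature library 3 or WT cold library 1 its fall in WT missed the threshold (-0.31 and -0.34). The fall in KO did so without any 1 of KO room temperature libraries 5 and 6 or KO cold libraries 1 and 2 (-0.34 to -0.42). Under library totals alone the fall in KO was not called either (-0.40, adjusted p = 0.096).

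Gsta4, which conjugates hydroxynonenal from lipid peroxidation, had 33.5, 30.3 and 26.3 CPM in KO cold, 35.2, 30.1 and 41.3 CPM in WT cold, 23.9, 22.5 and 25.3 CPM in KO at room temperature and 37.3, 40.2 and 41 CPM in WT at room temperature. The KO libraries at room temperature were the lowest, 1.65-fold below WT (log2 -0.73 ± 0.11, adjusted p = 8.1e-05), while in the cold the genotypes overlapped (-0.24 ± 0.11, adjusted p = 0.071), and the difference was called without KO cold library 1 or WT cold library 2 (-0.33 and -0.34). The kappa-class Gstk1, of mitochondria and peroxisomes, was lower in KO at room temperature (-0.63 ± 0.12, adjusted p = 0.00066) and missed the threshold in the cold (-0.28 ± 0.12, adjusted p = 0.061), which it passed without KO cold library 1 (-0.42). Gstm4 was higher in KO in the cold (0.44 ± 0.11, adjusted p = 0.0027) and fell with cold in WT (-0.50 ± 0.11, adjusted p = 0.0012). Gstm1, Gstm5, Gsto1 and Gstp1 were not called, with KO over WT between -0.0099 and 0.25 in the cold and between -0.30 and 0.22 at room temperature. All 4 were called higher in KO in the cold under library totals alone, at 0.45, 0.48, 0.43 and 0.70 in that order, and Gstm1 also at room temperature (0.44). Without KO room temperature library 4, Gsto1 was called lower in KO at room temperature (-0.51, adjusted p = 0.00046), higher with cold in KO (0.54, adjusted p = 0.0016) and for the difference between the responses (0.50, adjusted p = 0.0071), and Gstm1 was called at room temperature (0.27). Without KO cold library 3, Gstp1 was called in the cold (0.38, adjusted p = 0.049). Gstm1 and Gstp1 share 18.9 and 33.7% of their exon sequence with other genes, in words of 50 bases, and their counts are uncertain.

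The microsomal transferases Mgst1 and Mgst2 were higher in KO in the cold, and Mgst3 was not called there (-0.19 ± 0.11), except without KO cold library 3 (-0.32). Mgst3 fell with cold in KO (-0.35 ± 0.11, adjusted p = 0.04). That call ended without any 1 of KO room temperature libraries 5 and 6 or KO cold libraries 1 and 2 (-0.26 to -0.34). It also ended under library totals alone (-0.33, adjusted p = 0.08). Mgst1, a membrane enzyme of the endoplasmic reticulum and outer mitochondrial membrane with peroxidase activity, is at chr6:138140316-138156755. It had 513, 492 and 396 CPM in KO cold, 338, 300.4 and 359.8 CPM in WT cold, 381, 401 and 387 CPM in KO at room temperature and 404, 445 and 426 CPM in WT at room temperature. WT cold libraries were the lowest of the 12, and KO exceeded WT 1.4-fold in the cold (log2 0.49 ± 0.10, adjusted p = 0.00068), against -0.12 ± 0.10 at room temperature (adjusted p = 0.35). With cold it fell in WT (-0.35 ± 0.10, adjusted p = 0.0084, and 0.055 without WT cold library 2) and was 0.26 ± 0.10 in KO (adjusted p = 0.092, and 0.021 without KO cold library 3). Mgst2, which can also conjugate leukotrienes, had 5.76, 6.4 and 4.16 CPM in KO cold, 1.95, 1.59 and 3.28 CPM in WT cold, 5.12, 4.35 and 4.43 CPM in KO at room temperature and 2.99, 3.75 and 3.87 CPM in WT at room temperature. KO and WT did not overlap at either temperature, with KO 2.38-fold higher in the cold (log2 1.25 ± 0.23, adjusted p = 0.00024) and 0.39 ± 0.22 at room temperature (adjusted p = 0.17). Its fall with cold in WT (-0.63 ± 0.23, adjusted p = 0.033) was lost without any 1 of WT room temperature libraries 2 and 3 or WT cold libraries 1 and 2, with -0.44 to -0.59.

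**Figure D2:**
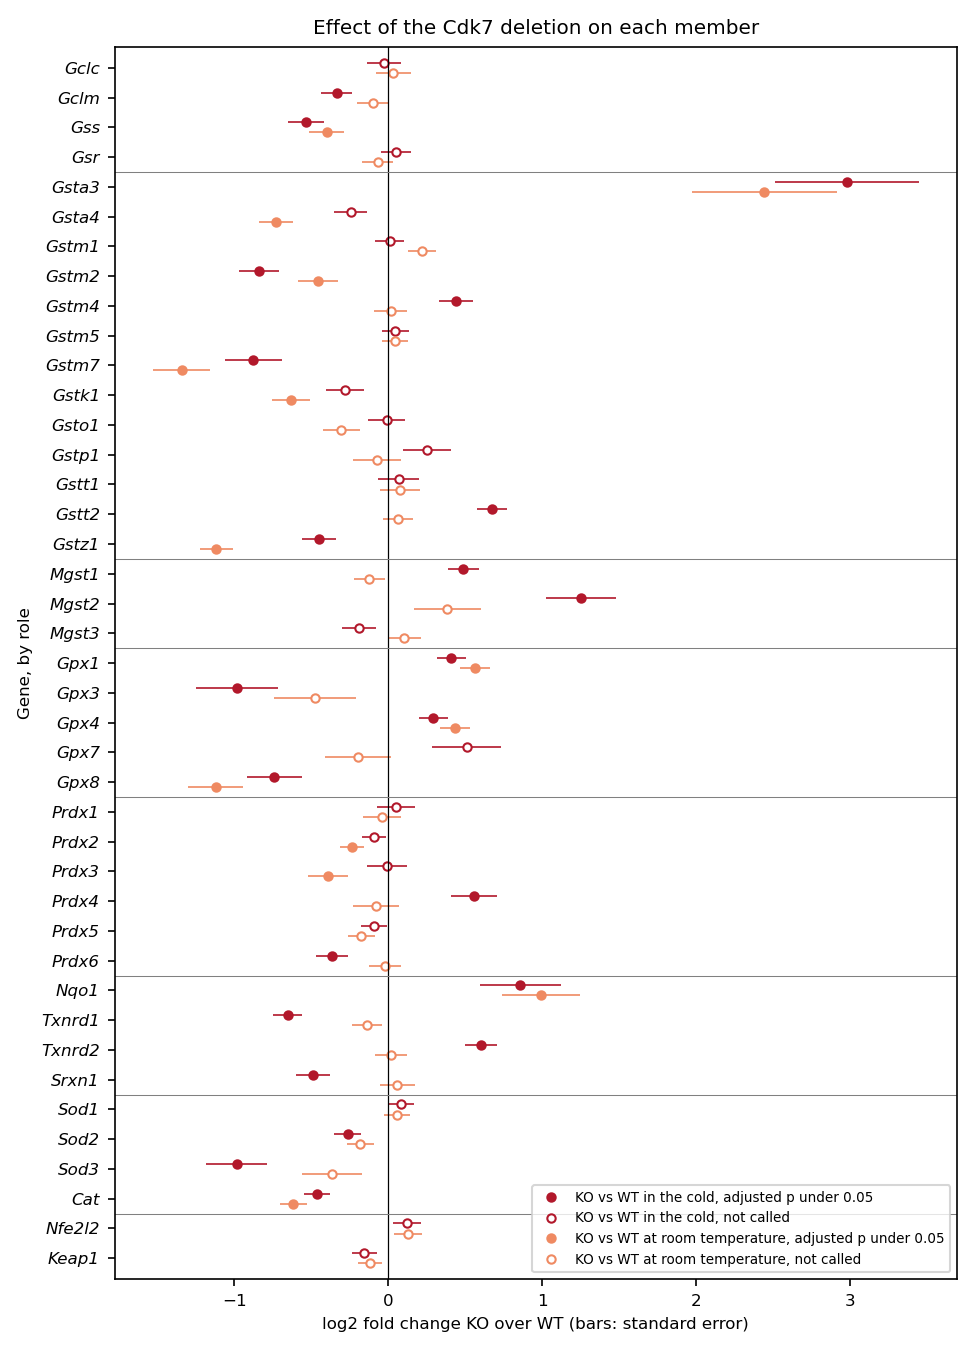
Log2 fold change of KO over WT (horizontal axis, bars are SE, 3 libraries a group) for each of the 41 genes in the cold (upper, dark points) and at room temperature (lower, light points), with filled points at adjusted p under 0.05. Gsta3 lies at 2.98 and 2.44, Gpx1, Gpx4 and Nqo1 lie right of 0 at both temperatures, and Cat, Gpx8, Gss, Gstm2, Gstm7 and Gstz1 lie left of 0 at both.

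Of the 5 glutathione peroxidases, Gpx1 and Gpx4 were higher and Gpx8 lower in KO at both temperatures. In the cold 2 were called higher and 2 lower, beside 25.9 and 27.8% of all genes. At room temperature 2 were called higher and 1 lower, beside 19.3 and 21.0%. Gpx1, the cytosolic enzyme that reduces hydrogen peroxide, at chr9:108338903-108340343, had 327, 346 and 369 CPM in KO cold, 258, 269.8 and 256 CPM in WT cold, 329, 305 and 304 CPM in KO at room temperature and 245, 191 and 199 CPM in WT at room temperature. All KO libraries lay above all WT libraries, 1.33-fold in the cold (log2 0.41 ± 0.10, adjusted p = 0.0017) and 1.48-fold at room temperature (0.56 ± 0.10, adjusted p = 0.00022). Its rise with cold in WT (0.30 ± 0.10, adjusted p = 0.015) was lost without any 1 of WT room temperature libraries 2 and 3 or WT cold library 2, with 0.24 to 0.28, and under library totals alone (0.12). Gpx4, which reduces phospholipid hydroperoxides, was higher in KO by 0.29 ± 0.09 in the cold (adjusted p = 0.015) and 0.43 ± 0.09 at room temperature (adjusted p = 0.0018). Without KO cold library 3 or WT cold library 2 the value in the cold missed the threshold (0.22 and 0.28), and 34.7% of Gpx4 sequence recurs in pseudogenes. Gpx1 and Gpx4 rose beside the macrophage markers, whose part was not tested.

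Gpx8, a peroxidase of the endoplasmic reticulum, had 80.2, 99.6 and 77.7 CPM in KO cold, 139, 129 and 162 CPM in WT cold, 80.1, 78 and 85.4 CPM in KO at room temperature and 237, 152 and 139 CPM in WT at room temperature. KO libraries lay below WT libraries at each temperature, by 1.67-fold in the cold (log2 -0.74 ± 0.18, adjusted p = 0.0042, and -0.30 with 0.075 under library totals alone) and 2.17-fold at room temperature (-1.12 ± 0.18, adjusted p = 0.00045). The highest value was WT room temperature library 1, the library that stood apart. Gpx3 was lower in KO in the cold (-0.98 ± 0.27, adjusted p = 0.011) and was not called at room temperature (-0.48 ± 0.27, adjusted p = 0.18). With no filter beyond 1 count the difference at room temperature was called (-0.50). Gpx7, also of the endoplasmic reticulum, fell with cold in WT (-0.87 ± 0.22, adjusted p = 0.004) and showed -0.17 ± 0.21 in KO (adjusted p = 0.65).

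Of the 6 peroxiredoxins, Prdx6 rose with cold in both genotypes. Prdx6, a peroxiredoxin that takes electrons from glutathione and also acts as a phospholipase, is at chr1:161240112-161251219. It had 218, 216 and 176 CPM in KO cold, 286, 260.4 and 239 CPM in WT cold, 159, 152 and 128 CPM in KO at room temperature and 144, 156 and 146 CPM in WT at room temperature. Every cold library exceeded every room temperature library, 1.39-fold in KO (log2 0.47 ± 0.10, adjusted p = 0.0063) and 1.76-fold in WT (0.81 ± 0.11, adjusted p = 9.7e-06). KO was below WT in the cold (-0.36 ± 0.10, adjusted p = 0.0078), which turned to 0.078 under library totals alone, and the difference between the responses was not called (-0.34 ± 0.15, adjusted p = 0.11). Without KO room temperature library 6 and WT room temperature library 2, both rich in muscle transcripts, the rise in KO was 0.38 (adjusted p = 0.055).

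Prdx4, the peroxiredoxin of the endoplasmic reticulum, was higher in KO in the cold (0.56 ± 0.15, adjusted p = 0.0051). Prdx2 of the cytosol and Prdx3 of mitochondria were lower in KO at room temperature (-0.24 ± 0.08 and -0.39 ± 0.13, adjusted p = 0.023 for each). In the cold they stood at -0.092 and -0.0079, or 0.35 and 0.44 under library totals alone. Library totals alone also ended both room temperature calls, at -0.025 for Prdx2 (adjusted p = 0.89) and -0.19 for Prdx3 (adjusted p = 0.41). Without WT room temperature library 2 their adjusted p at room temperature became 0.10 and 0.12, and KO library 6 ended both calls as well. The call of Prdx3 also ended without KO library 5 or WT library 3 (-0.40 and -0.38). Prdx1 and Prdx5 were not called. Prdx1 stood at 0.37 ± 0.12 for cold in KO (adjusted p = 0.057) and 0.27 ± 0.12 for cold in WT (adjusted p = 0.081). The difference in KO was at the threshold, since DESeq2 (0.031), the 6 libraries alone (0.043), the stricter filter (0.048), no filter beyond 1 count (0.0041) and the fit without KO cold library 3 (0.021) gave adjusted p under it. In WT it was called without WT room temperature library 2 (0.37, adjusted p = 0.041). Under library totals alone Prdx1 (0.49, adjusted p = 0.021) and Prdx5 (0.35, adjusted p = 0.014) were called higher in KO in the cold, and without KO room temperature library 4 Prdx5 was called lower in KO at room temperature (-0.26, adjusted p = 0.022). Prdx2 and Prdx5 overlap genes on the other strand and share 12.0 and 15.5% of their sequence with other genes.

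The strongest cold response of the 41 genes was that of Srxn1, sulfiredoxin, which repairs peroxiredoxins that peroxide has overoxidised, at chr2:152105516-152111376. Srxn1 had 121, 117 and 85.9 CPM in KO cold, 141, 143 and 170.1 CPM in WT cold, 53.3, 60.1 and 56.3 CPM in KO at room temperature and 56.4, 51.6 and 54.8 CPM in WT at room temperature. Genotypes overlapped at room temperature, every cold library was above every room temperature library, and the 3 KO cold libraries were below the 3 WT cold libraries. Cold raised it 1.91-fold in KO (log2 0.93 ± 0.11, adjusted p = 5e-05) and 2.79-fold in WT (1.48 ± 0.12, adjusted p = 6.3e-08). KO was 1.4-fold lower than WT in the cold (-0.49 ± 0.11, adjusted p = 0.0017), but -0.042 under library totals alone (adjusted p = 0.80).

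Txnrd1, the cytosolic thioredoxin reductase, is at chr10:82833951-82897712. It had 94.9, 103 and 76.3 CPM in KO cold, 141, 140.4 and 149 CPM in WT cold, 71.2, 71.4 and 69.8 CPM in KO at room temperature and 74.8, 74.7 and 84.3 CPM in WT at room temperature. WT cold libraries stood above all others. Cold raised it 1.29-fold in KO (log2 0.37 ± 0.10, adjusted p = 0.017) and 1.84-fold in WT (0.88 ± 0.10, adjusted p = 1.9e-06), and KO was 1.57-fold lower than WT in the cold (adjusted p = 3.4e-05). Library totals alone put the last at -0.21 (adjusted p = 0.17). The rise in KO missed the threshold without KO room temperature library 6 or KO cold library 1 or 2, at 0.36, 0.34 and 0.27. It also missed it under library totals alone (0.40, adjusted p = 0.056) and without both muscle-rich libraries (0.35, adjusted p = 0.078).

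**Figure D3:**
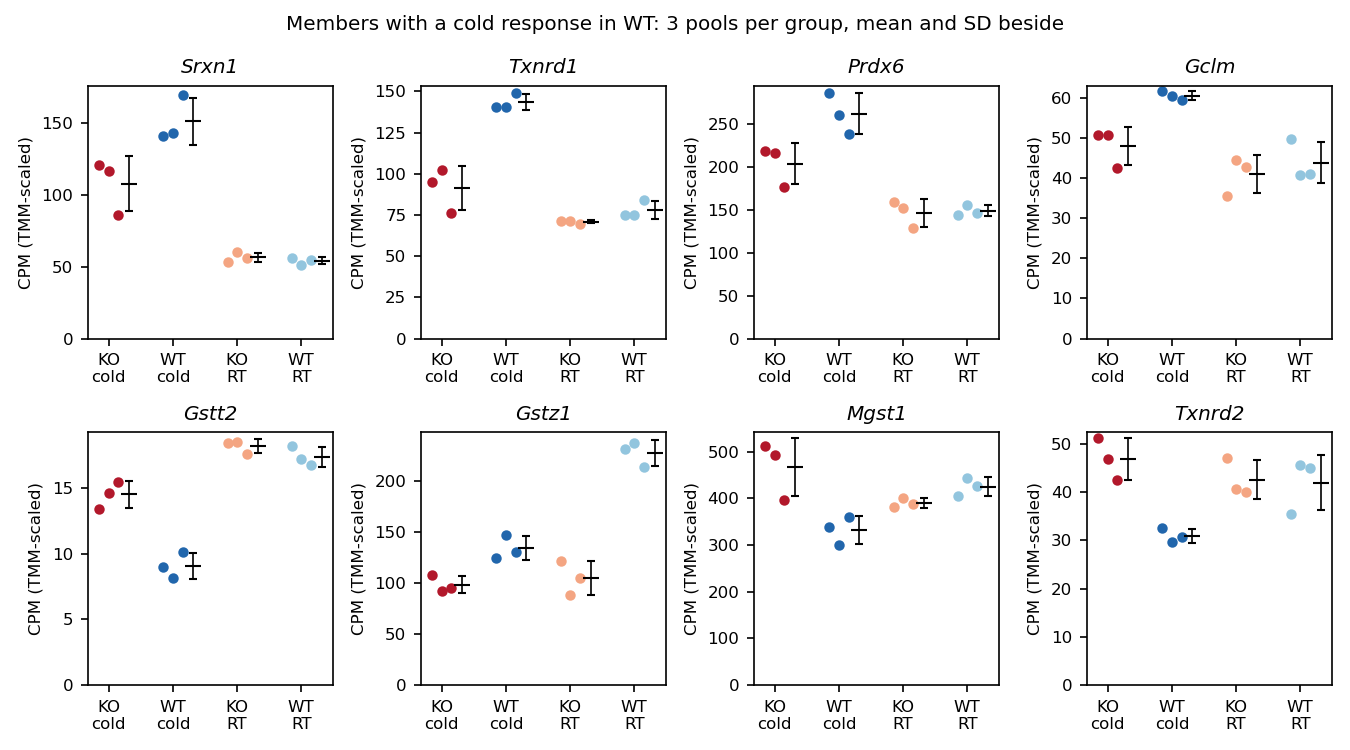
Level in CPM (vertical axis from 0, TMM-scaled) of 8 genes picked after their values were seen, with a point for each of the 3 pools per group and the mean ± SD beside them. In the upper row Srxn1, Txnrd1, Prdx6 and Gclm are highest in WT cold, and in the lower row Gstt2, Mgst1 and Txnrd2 are lowest in WT cold while Gstz1 is highest in WT at room temperature.

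Txnrd2, the mitochondrial thioredoxin reductase, at chr16:18426384-18479073, went the other way from Txnrd1 in WT. It had 51.2, 46.9 and 42.6 CPM in KO cold, 32.5, 29.7 and 30.7 CPM in WT cold, 47.1, 40.6 and 39.9 CPM in KO at room temperature and 35.4, 45.5 and 44.9 CPM in WT at room temperature. WT cold libraries were the lowest of the 12, and KO exceeded WT 1.52-fold in the cold (log2 0.60 ± 0.10, adjusted p = 0.00015), with 0.02 ± 0.10 at room temperature. Cold lowered it in WT (-0.44 ± 0.10, adjusted p = 0.0023), and KO showed 0.14 ± 0.10 (adjusted p = 0.4). Nqo1, a quinone reductase and a common readout of NFE2L2, had the lowest mean over the groups of the 41 genes per kilobase, although Gstm7 was lower in KO at room temperature and Gsta3 in WT at room temperature. It had 1.87, 1.25 and 1.45 CPM in KO cold, 0.675, 1.04 and 0.819 CPM in WT cold, 1.97, 1.62 and 2.05 CPM in KO at room temperature and 1.19, 0.996 and 0.681 CPM in WT at room temperature. KO libraries exceeded WT libraries at each temperature, 1.81-fold in the cold (log2 0.86 ± 0.26, adjusted p = 0.012) and 1.99-fold at room temperature (0.99 ± 0.25, adjusted p = 0.005). In the cold the call ended without KO cold library 1 or WT cold library 1 (0.68 and 0.71).

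Among superoxide dismutases and catalase, Cat changed in all 4 pairwise comparisons. Cat, the peroxisomal catalase that splits hydrogen peroxide, at chr2:103453849-103485160, had 355, 360.3 and 340.1 CPM in KO cold, 451, 478 and 523 CPM in WT cold, 492, 432 and 442 CPM in KO at room temperature and 723, 677 and 694 CPM in WT at room temperature. KO lay below WT at each temperature, and cold lay below room temperature in each genotype. KO was 1.38-fold lower in the cold (log2 -0.46 ± 0.09, adjusted p = 0.00029) and 1.53-fold lower at room temperature (-0.61 ± 0.09, adjusted p = 3.7e-05). Cold lowered it 1.29-fold in KO (adjusted p = 0.0077) and 1.44-fold in WT (adjusted p = 9.1e-05), and the difference between these responses was not called (0.15 ± 0.12). Library totals alone put KO over WT in the cold at -0.020 (adjusted p = 0.88) and left the other 3 calls.

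Sod3, the extracellular enzyme, was lower in KO in the cold (-0.98 ± 0.20, adjusted p = 0.0016) and not called at room temperature (-0.36 ± 0.20, adjusted p = 0.16), where it was called with no filter beyond 1 count (-0.39). Sod2, the manganese enzyme of mitochondria, was -0.26 ± 0.09 in KO against WT in the cold (adjusted p = 0.021) and 0.26 ± 0.09 for cold in WT (adjusted p = 0.026). Under library totals alone the first turned to 0.18 and the second was 0.060 (adjusted p = 0.73). The first was lost without KO cold library 2 or 3 or WT cold library 1 (-0.26, -0.23 and -0.20). The second was lost without WT room temperature library 1 or 3 or WT cold library 1 (0.22, 0.26 and 0.19). Sod2 shares 21.0% of its exon sequence with other genes, in words of 50 bases, and its counts are uncertain. Sod1, the cytosolic copper and zinc enzyme, was not called, with 0.083 for KO over WT in the cold and 0.059 at room temperature. Sod1 was called higher in KO under library totals alone, in the cold (0.52, adjusted p = 0.00048) and at room temperature (0.28, adjusted p = 0.045).

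**Figure D4:**
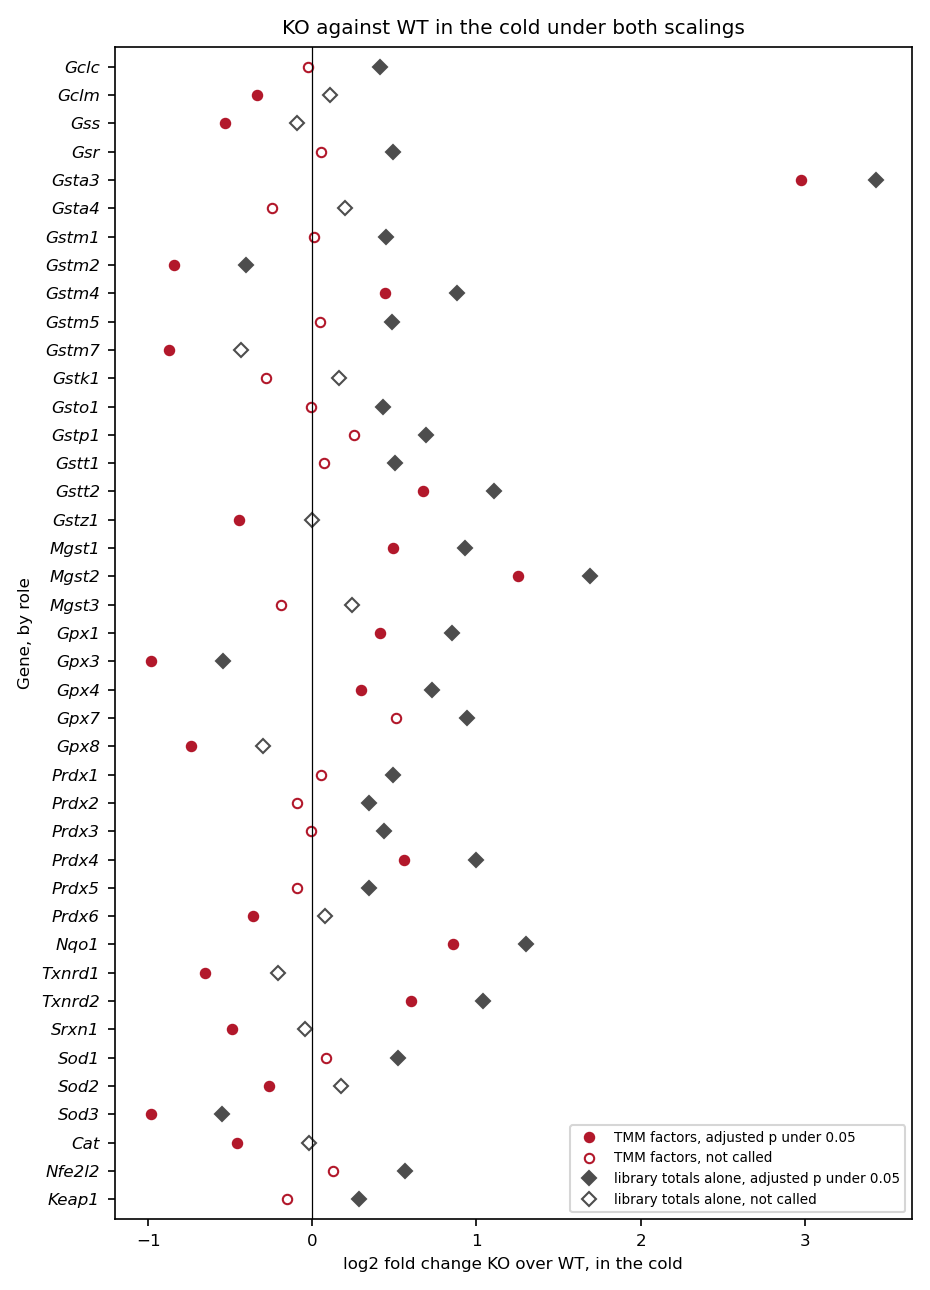
Log2 fold change of KO over WT in the cold (horizontal axis) for each of the 41 genes with TMM factors (circles) and with library totals alone (diamonds), filled at adjusted p under 0.05. Every gene lies further right with library totals, and Gstm2, Gpx3 and Sod3 are the 3 called lower under both.

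The difference between the cold responses, KO minus WT, addresses whether the response itself changed with the deletion. It was positive for Gstz1 (0.67 ± 0.15, adjusted p = 0.0055), Mgst1 (0.61 ± 0.14, adjusted p = 0.0055), Gstt2 (0.61 ± 0.14, adjusted p = 0.0046), Txnrd2 (0.58 ± 0.15, adjusted p = 0.0091), Prdx4 (0.64 ± 0.21, adjusted p = 0.038) and Gsta4 (0.48 ± 0.16, adjusted p = 0.032). It was negative for Srxn1 (-0.55 ± 0.16, adjusted p = 0.021) and Txnrd1 (-0.51 ± 0.14, adjusted p = 0.012). For Srxn1 and Txnrd1 the rise with cold was thus smaller in KO, and for Gstt2 the fall was smaller in KO. Gstm4 (0.43 ± 0.15, adjusted p = 0.051) and Mgst2 (0.87 ± 0.31, adjusted p = 0.055) narrowly missed the threshold. Both were called with DESeq2, with library totals alone, with the stricter filter and without WT cold library 3. Under library totals alone, Srxn1 stood at -0.32 (adjusted p = 0.25) and Txnrd1 at -0.28 (adjusted p = 0.28). Without both muscle-rich libraries the calls of Srxn1, Txnrd1, Txnrd2, Prdx4 and Gsta4 ended, at -0.52, -0.50, 0.47, 0.46 and 0.51, and Gstz1, Mgst1 and Gstt2 kept theirs under every alternative run. Leaving out WT room temperature library 2 or WT cold library 3 ended that of Srxn1 (-0.51 and -0.44), and the calls of Prdx4 and Gsta4 ended without many of the single libraries. For Prdx4 these were KO cold 1 and 2, WT cold 2 and 3, KO room temperature 5 and 6 and WT room temperature 2 and 3 (0.53 to 0.68). For Gsta4 they were KO cold 1 and 2, WT cold 1 and 2, KO room temperature 5 and WT room temperature 2 and 3 (0.39 to 0.48).

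**Figure D5:**
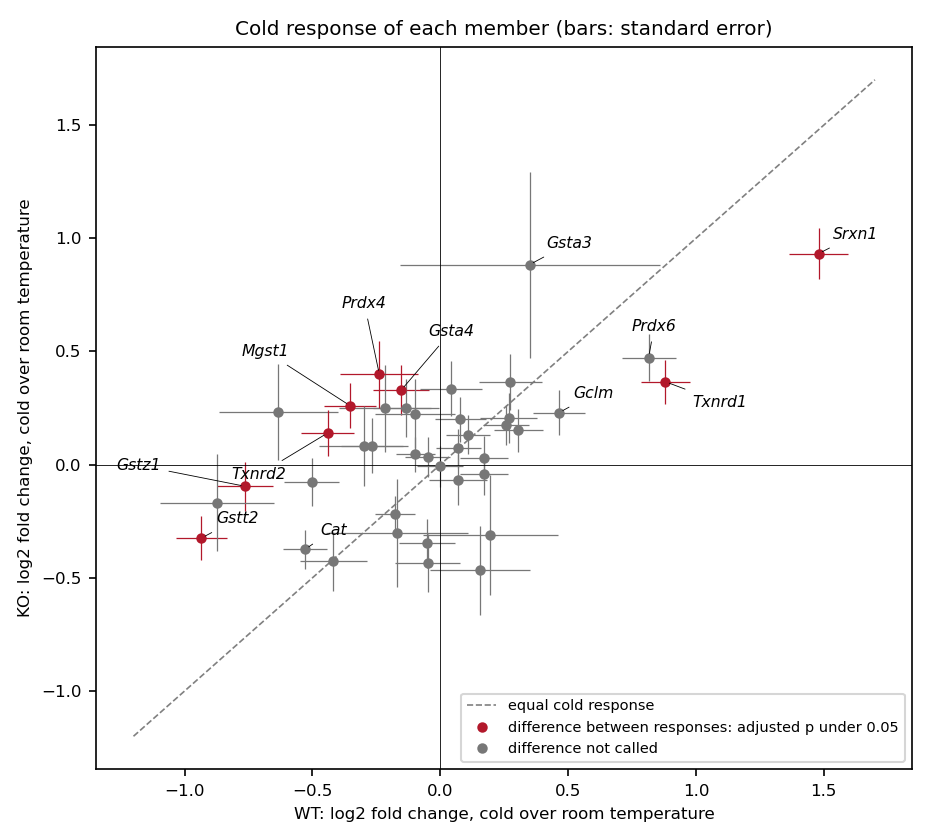
Log2 fold change of cold over room temperature in KO (vertical axis) against WT (horizontal axis) for the 41 genes, with SE bars, the line of equal response dashed, and genes whose difference between responses passed the test in red. Srxn1 (0.93 in KO, 1.48 in WT) and Txnrd1 (0.37 in KO, 0.88 in WT) lie below the line, and Gstt2, Gstz1 and Mgst1 lie above it.

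Further genes of the pathway were taken from 5 lists, whose medians below are set beside 0.012 in the cold and 0.0033 at room temperature for KO over WT over all genes. The counts are to be read against 53.7% of all genes called in the cold (25.9% higher, 27.8% lower) and 40.4% at room temperature (19.3% higher, 21.0% lower). Of 9 tested relatives of the transferases and of the MAPEG family, 5 were higher in KO in the cold and 0 lower, and at room temperature 5 were higher and 1 lower, with median log2 fold changes of 0.50 and 0.54, so that 55.6% were called in the cold and 66.7% at room temperature. Among them were Ptges, prostaglandin E synthase (19 ± 1.82 CPM in KO cold and 4.69 ± 0.163 CPM in WT cold, mean ± SD, n = 3 each, log2 2.02 ± 0.14), Hpgds, the prostaglandin D synthase of blood cells (2.13 ± 0.24), and Alox5ap, which presents arachidonic acid to lipoxygenase (1.51 ± 0.21). Gsto2 fell with cold in WT (-0.88 ± 0.19). Hpgds and Alox5ap are genes of blood and immune cells, and moved beside the macrophage markers.

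Of 18 tested genes of cysteine supply, glutathione transport and breakdown, 6 were higher and 3 lower in cold KO mice, while at room temperature KO mice had 3 higher and 6 lower, with medians of 0.40 and -0.15. That is 50% at each temperature. Oplah, which opens oxoproline to glutamate, was lower in KO in the cold (142 ± 10.4 CPM in KO, 260.1 ± 2.42 CPM in WT, log2 -0.87 ± 0.08), and at room temperature (-0.72 ± 0.08). Ggt5, a gamma-glutamyl transferase, was higher in KO (1.23 ± 0.17 in the cold, 0.84 ± 0.16 at room temperature). The glutamine carrier Slc1a5 fell with cold by -0.89 ± 0.23 in KO and by -2.40 ± 0.24 in WT, and the exporter Abcc4 was -0.046 ± 0.12 in KO, which was not called, and -1.14 ± 0.12 in WT.

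Of 22 genes of thioredoxin, glutaredoxin and repair of oxidised proteins, 4 were higher and 5 lower in cold KO mice, while at room temperature KO mice had 3 higher and 10 lower, with medians of 0.053 and -0.24. That is 40.9% in the cold and 59.1% at room temperature. Txn2, mitochondrial thioredoxin, was lower in KO in the cold (-0.85 ± 0.11, adjusted p = 7.6e-06), with -0.093 ± 0.11 at room temperature, and rose with cold in WT (0.70 ± 0.11). Txnrd3 fell with cold in KO (-0.69 ± 0.14) and in WT (-1.45 ± 0.14), Msrb3, a methionine sulfoxide reductase, fell with cold in WT (-0.68 ± 0.08), and Sesn3 was lower in KO at room temperature (-1.24 ± 0.15). Of 16 genes of NADPH supply, 7 were higher and 7 lower in KO in the cold, and 5 and 5 at room temperature, with medians of 0.052 and -0.099, or 87.5% in the cold and 62.5% at room temperature. Pgd of the pentose phosphate pathway was higher in KO (683 ± 64.9 CPM in KO cold, 284 ± 66 CPM in WT cold, log2 1.26 ± 0.15), H6pd and Idh2 were lower in KO at room temperature (-0.84 ± 0.10 and -0.76 ± 0.10), and Idh1 fell with cold in WT (-1.09 ± 0.13).

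Of 26 other NFE2L2 targets and regulators, 7 were higher and 6 lower in KO in the cold, and 5 and 6 at room temperature, with medians of 0.18 and -0.048, while cold raised 5 and lowered 3 in KO and raised 8 and lowered 10 in WT. The called share was 50% in the cold and 42.3% at room temperature, and for cold 30.8% in KO and 69.2% in WT, beside 14.8 and 46.3% of all genes. Maff, a small partner of NFE2L2, rose with cold in KO (0.85 ± 0.15) and in WT (1.91 ± 0.16). Ephx1, the microsomal epoxide hydrolase, was higher in KO (91.9 ± 0.76 CPM in KO cold and 18.9 ± 6.34 CPM in WT cold, log2 2.28 ± 0.16), as was Ugdh, which makes UDP-glucuronate, in the cold (1.58 ± 0.13). Gsk3b, a kinase that favours loss of NFE2L2, was lower in KO at both temperatures (-0.52 ± 0.07 in the cold, -0.78 ± 0.07 at room temperature). Among the 10 genes whose windows hold the searched letters, Gsta3 and Mgst1 were higher in KO than in WT in the cold. Txnrd1, Srxn1, Gclm and Gstm7 were lower. Of all tested genes 53.7% were called in that comparison, 25.9% higher and 27.8% lower. Under library totals alone Gclm turned sign, and Txnrd1, Srxn1 and Gstm7 lost the call. Nfe2l2, Prdx1, Sod1 and Gstm5 were not called in the cold with TMM, and all 4 were called higher under library totals alone. With that scaling 7881 of all genes were called higher and 1073 lower.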

How the data were processed

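RNA-seq was done on interscapular brown adipose tissue in 12 libraries, 3 for each of the 4 groups, each from RNA of 2 mice (250 ng each, 500 ng per pool). The deposited values are raw counts per Ensembl gene, which the authors made with STAR and HTSeq on GRCm38, per the submitters' processing notes. Versions, the library kit and its strandedness are not given in the sources used here. The names of the count files mention a reverse-strand setting, which, if it was used on a stranded library, counts genes that overlap on opposite strands apart. One such gene is not reported here. Lines without a gene were left out (reads with several alignments were 26.6 to 30.2% of all lines, those outside genes 1.64 to 2.26%). Groups came from the labels. Of 53379 gene IDs 53274 matched GENCODE M21.

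The counts were tested with the quasi-likelihood method of edgeR 4.0.16 (R 4.3.3). After filterByExpr by group 15208 genes remained, and the model had TMM factors, 1 mean for each group, all 12 libraries and robust estimation (biological coefficient of variation 13.6%, prior count 0.125). The test was run on simulated counts in which few genes were changed in the KO libraries, up and down alike. Because most genes were left unchanged, that run cannot speak to the choice of scaling. The 41 genes, the marker and pathway lists and the settings were chosen with earlier results of these data known. Values in every library are given for 9 genes of regulation, synthesis, reduction and repair and for the genes of smallest p, 6 at most in each comparison, and up to 4 genes were named from each further list. Alternatives were median-ratio size factors, library totals alone, no filter beyond 1 count, a filter of 1 CPM in 6 libraries, mitochondrially encoded genes left out, DESeq2 1.42.0, the 6 libraries compared, a replicate block, and libraries left out. Protein identities were not analysed here.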

Additional observations from a re-analysis of the deposited data

Results flagged for a closer look

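For 8 of the 41 genes the response to cold differed between KO and WT by the test of that difference itself. That is 19.5% of the genes, below the 23.5% of all tested genes. Only Gstz1, Mgst1 and Gstt2 kept the call under every alternative run, and the other calls ended without both muscle-rich libraries. Values are given here as log2 KO minus WT. Gstz1 had 0.67, with -0.10 in KO and -0.76 in WT. Mgst1 had 0.61, with 0.26 in KO and -0.35 in WT. Gstt2 had 0.61, with -0.32 in KO and -0.93 in WT. Txnrd2 had 0.58, with 0.14 in KO and -0.44 in WT. Prdx4 had 0.64, with 0.40 in KO and -0.24 in WT. Gsta4 had 0.48, with 0.33 in KO and -0.15 in WT. Srxn1 had -0.55, with 0.93 in KO and 1.48 in WT. Txnrd1 had -0.51, with 0.37 in KO and 0.88 in WT.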

How the results depend on the processing

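Of the calls on the 41 genes, those that held under every alternative run were 10 of 23 for KO against WT in the cold, 10 of 14 at room temperature, 2 of 8 for cold in KO (Cat and Srxn1), 9 of 15 for cold in WT and 3 of 8 for the difference between the cold responses. Calls for cold in KO numbered 8, and 3 under library totals alone, 13 with no filter beyond 1 count and 2 without both muscle-rich libraries. Leaving out 1 library gave 3 to 10, with 5 without KO room temperature library 5 and 3 without KO room temperature library 6 or KO cold library 1 or 2. Calls of the difference numbered 8, and 14 with no filter beyond 1 count, 3 without the muscle-rich libraries and 5 to 11 with 1 library left out, the fewest without WT room temperature library 2. Leaving out 1 library gave 22 to 24 calls for KO against WT in the cold, 12 to 17 at room temperature and 12 to 17 for cold in WT. Library totals alone turned the sign, for KO over WT in the cold, of Gclc (0.41), Gclm (0.11), Gsto1 (0.43), Prdx2 (0.35), Prdx3 (0.44), Prdx5 (0.35), Prdx6 (0.078), Sod2 (0.18) and Keap1 (0.28), each called under at least 1 of both scalings. The scaling itself moves the median of all genes, and which scaling is nearer the truth was not tested. With the replicate number as a block, for which KO at room temperature shares no number, 22 genes were called for KO against WT in the cold, with Gpx3 lost (-0.97, adjusted p = 0.065), and 14 for cold in WT, with Mgst2 lost (-0.64, adjusted p = 0.077). Same-numbered libraries correlated at -0.44 to 0.32 in their deviations. Libraries of different number were not set beside them, so these values cannot decide whether the numbers mark pairs. Counts of 18 to 74 for Nqo1 and pools in place of single mice limit the precision.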
